A study of Arabidopsis thaliana with 4 samples.

Results

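A set of 60 nuclear genes for proteins of the cytosolic 80S ribosome of Arabidopsis thaliana were followed in whole rosettes of wild type and of plants that overexpressed PPD3. They were chosen by locus identifier from families of the large (60S) and small (40S) subunit, mostly as paralogue pairs or triplets, and make up 60 of 33977 genes counted: 38 from 16 families of the 60S subunit and 22 from 10 families of the 40S subunit. The reference product name contained "ribosomal protein" for 58 of the 60. The exceptions were RPL10C, whose product is named for senescence, and AT3G49010 (BBC1) of the RPL13 family. The study sequenced mRNA of 4 individuals: 2 wild-type Columbia-0 plants (Col-0) and 2 plants of that background overexpressing PPD3 (PPD3_OE). All plants grew at 22 °C with 16 h of light and were frozen at bolting. One label names the whole rosette as tissue and a protocol names whole plants. The promoter of the transgene, the number of transgenic lines and the plants' age are not stated in the labels.

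The cytosolic ribosome translates nuclear-encoded messages. In plants each ribosomal protein is encoded by a small family of nearly equivalent genes, of which usually more than one is expressed, and the protein that enters a given ribosome can come from any of them. Ribosomal protein genes are transcribed most strongly in growing and dividing tissue, and losing single copies in Arabidopsis often gives pointed or narrow leaves. A short element called site II and the telo-box are both common upstream of these genes.

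Gene counts per library ran from 33771093 to 40727172. PPD3, taken as AT1G76450 and annotated in the PsbP family of photosystem II proteins, stood at 103 and 70.7 CPM (reads per 1e+06 counted, scaled by TMM) in Col-0 plants 1 and 2, and at 2836 and 3264 CPM in PPD3_OE plants 1 and 2. Leaf transcripts were abundant in every library, with RBCS1A, a Rubisco small subunit, at 6589 to 14207 CPM. The median log2 fold change over all 19919 genes tested was 0.01.

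Both PPD3_OE plants carried more ribosomal protein mRNA than both Col-0 plants. The 60 genes summed to 10631 and 10609 CPM in Col-0 plants 1 and 2, and to 13259 and 16300 CPM in PPD3_OE plants 1 and 2. The Col-0 plants nearly coincided, while PPD3_OE plant 2 stood well above PPD3_OE plant 1. The means were 10620 ± 16 CPM in Col-0 and 14780 ± 2151 in PPD3_OE (SD, n = 2), 1.39-fold higher, and the groups did not overlap (exact permutation test, two-sided, p = 0.333, the smallest value that 2 plants against 2 allow). As shares of all gene counts, the 60 genes took 1.06% and 1.09% in Col-0, and 1.30% and 1.61% in PPD3_OE. In whole-rosette RNA, more cells of a type that is rich in ribosomes and more ribosomal protein mRNA per cell cannot be told apart.

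The shift was shared by nearly all members. Of the 60 genes, 58 passed the filter on low counts, and all 58 had a positive fitted log2 fold change, against 51.2% of all genes tested. In 57 of 58 both PPD3_OE plants lay above both Col-0 plants, which held for 33.9% of all genes tested. In 0 members both lay below, against 33.0% of all genes. RPS18C was the exception. The median log2 fold change of the members was 0.50, with quartiles of 0.39 and 0.57 and a range from 0.01 to 0.89. In linear terms 48 members lay between 1.2-fold and 1.6-fold. The histogram of fold changes shows them as a narrow group to the right of the bulk of genes.

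**Figure D1:**
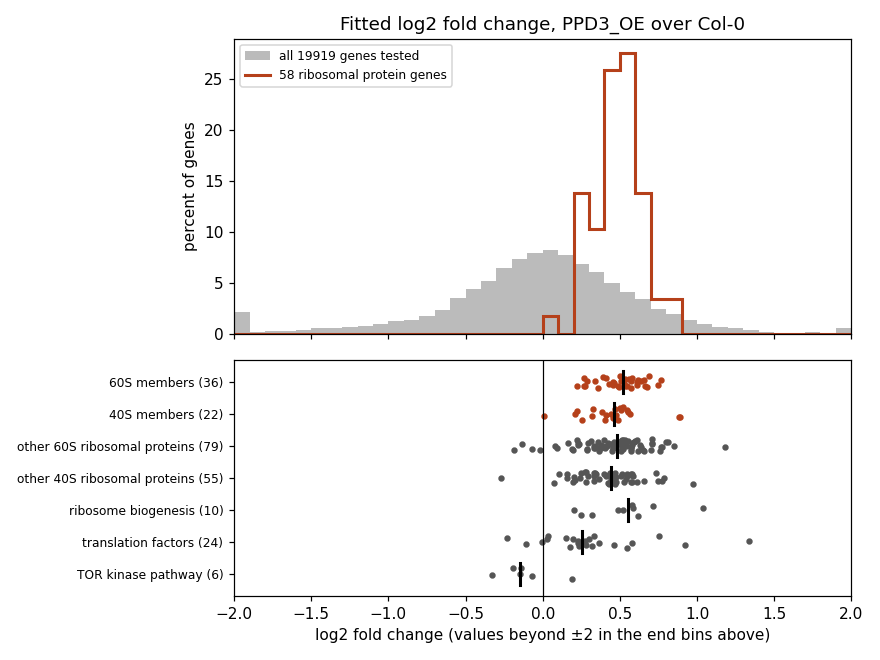
Fitted log2 fold changes, PPD3_OE over Col-0. Top, percent of genes per bin of log2 fold change for all 19919 genes tested (grey) and the 58 tested ribosomal protein genes (outline); bottom, each gene of each list as a point, with the median as a bar and the number of genes in parentheses. The ribosomal protein genes lie between 0.01 and 0.89, to the right of the centre of all genes.

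No member passed an adjusted p of 0.05 over all genes in edgeR, while 21 of 58 did in DESeq2. In edgeR's quasi-likelihood test 0 of 58 members had an adjusted p under 0.05 in either direction, where 0.0% of all genes were called higher and 0.00502% lower. The lowest adjusted p among members was 0.0672 in edgeR, for AT5G22440. PPD3 itself, at an edgeR adjusted p of 0.0623, was not called either. At an unadjusted edgeR p under 0.05, 37 of 58 members (63.8%) were higher and 0 lower, against 16.1% of all genes higher and 17.0% lower. At an adjusted p under 0.10, edgeR called 13 of 58 (22.4%) higher and 0 lower, against 9.56% of all genes higher and 11.2% lower. That edgeR count was lower or gone in every fit with 1 plant left out. DESeq2 called 21 of 58 (36.2%) higher at an adjusted p under 0.05 and 0 lower, against 8.41% of all genes higher and 9.72% lower. That DESeq2 count was lower or gone in most such fits. Shares over all genes were not compared in these fits, so their counts are no result about the members.

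The plants did not contribute equally. In all 58 tested members PPD3_OE plant 2 was above PPD3_OE plant 1, by a median ratio of 1.23 (range 1.06 to 2.05), and 54.5% of all genes tested went the same way. Between the Col-0 plants the ratio of plant 2 to plant 1 had a median of 0.988 and ran from 0.887 to 1.08. Without PPD3_OE plant 2 the median log2 fold change of the members was 0.31, and without PPD3_OE plant 1 it was 0.65. Since PPD3_OE plant 1 was the lower overexpressor in every tested member, the count of 57 of 58 above both Col-0 plants is set by it. Plant 1 taken alone gives that same count and is no separate check.

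**Figure D2:**
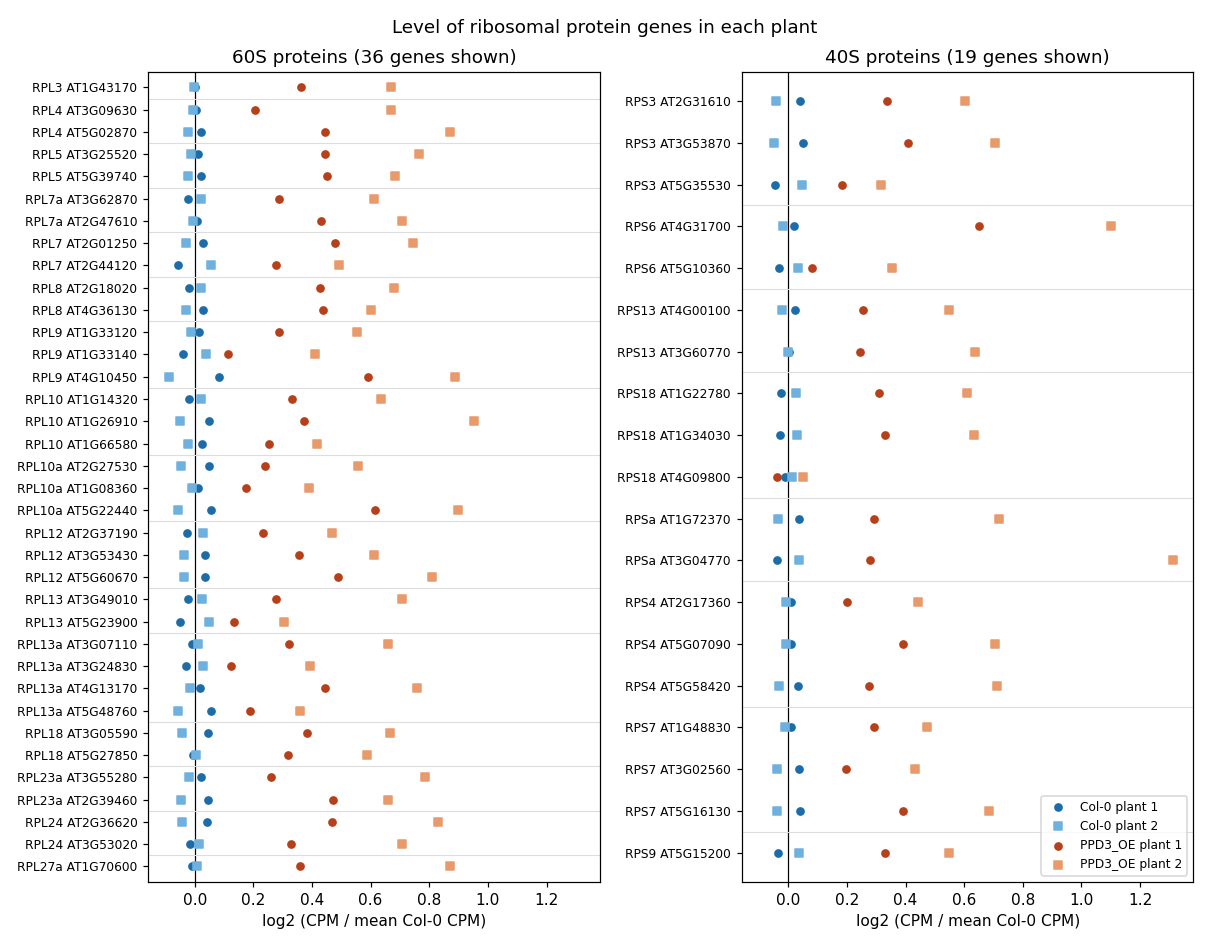
Level of 55 tested ribosomal protein genes in each plant, as log2 of its CPM over the mean CPM of the 2 Col-0 plants, by subunit and family. The Col-0 plants cluster at 0, PPD3_OE plant 1 lies to their right and PPD3_OE plant 2 farther right in the genes shown, apart from RPS18C (AT4G09800), where the 4 plants coincide.

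The upstream sequences of 4 members are printed because they belong to the families in which paralogues differed most, RPS6 and RPS18. Each is the 250 bases before the annotated gene start, read 5′ to 3′ on the gene's strand from the RefSeq TAIR10.1 genome. Capitals mark matches, on either strand, to the site II cores TGGGCC and TGGGCT and to the telo-box core AAACCCTA.
RPS6A (AT4G31700, chr4:15347805-15348054, minus strand): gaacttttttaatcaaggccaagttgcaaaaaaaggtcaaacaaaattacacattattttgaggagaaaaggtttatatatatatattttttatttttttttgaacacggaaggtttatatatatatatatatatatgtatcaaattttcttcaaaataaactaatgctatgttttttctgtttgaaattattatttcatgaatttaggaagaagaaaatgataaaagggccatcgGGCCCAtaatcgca
RPS6B (AT5G10360, chr5:3260255-3260504, minus strand): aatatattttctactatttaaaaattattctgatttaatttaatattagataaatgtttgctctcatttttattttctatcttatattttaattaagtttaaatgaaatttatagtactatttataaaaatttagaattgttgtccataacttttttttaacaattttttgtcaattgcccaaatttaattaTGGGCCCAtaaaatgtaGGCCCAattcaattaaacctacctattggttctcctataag
AT1G34030 (RPS18 family, chr1:12371555-12371804, minus strand): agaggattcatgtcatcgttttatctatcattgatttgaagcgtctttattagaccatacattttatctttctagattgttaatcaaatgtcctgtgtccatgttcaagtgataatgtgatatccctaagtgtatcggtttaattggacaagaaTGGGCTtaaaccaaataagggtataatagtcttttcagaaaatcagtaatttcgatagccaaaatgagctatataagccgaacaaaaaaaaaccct
RPS18C (AT4G09800, chr4:6173462-6173711, plus strand): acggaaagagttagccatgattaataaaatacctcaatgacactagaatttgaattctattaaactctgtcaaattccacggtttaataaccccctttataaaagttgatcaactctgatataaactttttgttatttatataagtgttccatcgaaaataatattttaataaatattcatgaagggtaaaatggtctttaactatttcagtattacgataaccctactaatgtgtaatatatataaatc
RPS6A held 1 match to TGGGCC, which began 14 bases before the gene start. RPS6B held 3, of which the matches at 58 and 56 bases overlap on opposite strands, and the third lay at 41 bases. AT1G34030 held 1 match to TGGGCT at 96 bases, and the RPS18C window held none of the searched motifs. The window of RPS18A, the remaining RPS18 gene, is not printed and also held none. RPS18A had a log2 fold change of 0.47, near the 0.49 of AT1G34030. A link between motif and fold change was not tested.

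Over all members, a site II core (TGGGCC or TGGGCT, both strands) was present in the 250-base window of 42 of 60 genes (70.0%), against 19.2% of 27443 nuclear coding genes. At least 2 such matches, overlapping ones included, were found in 30 of 60 (50.0%), against 12.0% of coding genes. The telo-box core AAACCCTA was present in 12 of 60 (20.0%) against 4.49%, and both elements together in 10 of 60 (16.7%) against 1.36%. The 41 tested members with a site II core had a median log2 fold change of 0.48, and the 17 without had 0.57. These matches describe the letters in the window and not bound sites.

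Abundant and scarce members were compared per kilobase of exon (RPKM, the scaled CPM divided by exon length). RPL3A, a core protein near the peptidyl transferase centre whose loss is embryo-lethal, stood at 294 RPKM in Col-0 and 423 in PPD3_OE. It measured 513, 512, 659 and 815 CPM in Col-0 plants 1 and 2 and PPD3_OE plants 1 and 2 (0.52 ± 0.17, edgeR adjusted p = 0.126). By the mean over both genotypes, AT2G18020 (RPL8 family, 264 and 389 RPKM), RPL10A (265 and 373 RPKM) and RPL5A (249 and 381 RPKM) followed. Their order among themselves does not hold in both genotypes, and in Col-0 RPS6B stood above them at 269 RPKM. At the other end, RPSAb stood at 2.73 and 5.05 RPKM, RPL10B at 7.55 and 12.2, and AT4G13170 of the RPL13a family at 16.4 and 25.0.

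Large-subunit members at the catalytic core and tunnel had log2 fold changes from 0.46 to 0.67. RPL8 lies close to the peptidyl transferase centre. AT2G18020 (EMB2296) had 306, 315, 418 and 498 CPM in Col-0 plants 1 and 2 and PPD3_OE plants 1 and 2, and its paralogue AT4G36130 had 72.3, 69.5, 96.0 and 107 CPM. Both were higher in both PPD3_OE plants, by log2 fold changes of 0.56 ± 0.15 and 0.52 ± 0.12 (edgeR adjusted p = 0.0966 and 0.0777). RPL4 lines the exit tunnel: AT3G09630 had 275, 273, 316 and 436 CPM and AT5G02870 had 288, 279, 386 and 518 CPM in the same order of plants. AT5G02870 was the higher of this pair in all plants, and its share of the RPL4 family level was 51.0% and 50.4% in Col-0 and 54.9% and 54.2% in PPD3_OE. RPL23a sits at the tunnel exit, where nascent chains meet targeting factors. RPL23AA had 216, 203, 291 and 331 CPM and RPL23AB had 62.0, 60.3, 73.3 and 105 CPM, with log2 fold changes of 0.57 ± 0.14 and 0.55 ± 0.20.

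RPL5 and RPL10 join the large subunit through well-studied assembly steps. RPL5, which carries a small ribosomal RNA into the particle, had 375, 369, 506 and 633 CPM for RPL5A and 295, 286, 396 and 465 CPM for RPL5B, again as Col-0 plants 1 and 2 and PPD3_OE plants 1 and 2. Their log2 fold changes were 0.61 ± 0.17 and 0.57 ± 0.15. RPL10, a late-joining protein, was mostly RPL10A (331, 340, 422 and 521 CPM), with 128, 124, 150 and 168 CPM for RPL10C. RPL10C also carries the name SAG24, senescence associated gene 24, and it was higher in both PPD3_OE plants (0.34 ± 0.12, edgeR adjusted p = 0.148). The senescence markers SAG13, SEN1 and NAC6 were lower in both PPD3_OE plants. SAG13 stood at 78.5 and 52.4 CPM in Col-0 and at 8.74 and 7.00 CPM in PPD3_OE. RPL10B was scarce, at 8.17, 7.64, 10.2 and 15.3 CPM.

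The stalk families RPL10a and RPL12 each held 1 of the larger differences, in their scarcest gene. Their other genes lay below the members' median log2 fold change of 0.50. RPL10a forms the mobile stalk beside the exit site. AT5G22440 of that family had 61.1 and 56.5 CPM in Col-0 and 90.0 and 110 CPM in PPD3_OE, with no overlap (log2 fold change 0.76 ± 0.15, edgeR adjusted p = 0.0672, DESeq2 adjusted p = 0.00141). Its paralogues differed less: AT2G27530 (PGY1, a leaf polarity gene) had 224, 210, 256 and 319 CPM, and AT1G08360 had 207, 204, 232 and 269 CPM. RPL12 anchors the other, factor-binding stalk. Its least abundant gene, AT5G60670, had 39.7, 37.7, 54.3 and 67.8 CPM (0.66 ± 0.15, edgeR adjusted p = 0.0770), AT3G53430 had 157, 150, 197 and 235 CPM, and AT2G37190 had 117, 121, 140 and 165 CPM. All 6 genes of these families were higher in both PPD3_OE plants.

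In RPL9, which lies near the factor-binding side of the large subunit, the least abundant gene again had the highest fold change. AT4G10450 had 35.7 and 31.6 CPM in Col-0 and 50.7 and 62.2 CPM in PPD3_OE (0.75 ± 0.15, edgeR adjusted p = 0.0707). AT1G33140 (PGY2, another leaf polarity gene) had 128, 135, 143 and 175 CPM (0.27 ± 0.15), and AT1G33120 had 77.8, 76.4, 94.2 and 113 CPM (0.43 ± 0.14). The coding sequences of AT1G33120 and AT1G33140 are 99.1% identical, and 48.0% and 48.8% of their transcripts' 150-base windows, the read length, are shared. The counts of these copies are uncertain, since a read from a shared window has no single origin. AT4G10450 shares 80.0% and 80.3% of coding bases with them and no such window.

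In the RPL24, RPL7, RPL7a, RPL18, RPL13 and RPL13a families every tested gene was higher in both PPD3_OE plants. RPL24B (STV1), needed for reinitiation of translation after upstream reading frames and for gynoecium patterning, had 159, 162, 202 and 262 CPM, and RPL24A had 104, 98.0, 140 and 179 CPM. In the RPL7 family AT2G01250 had 255, 245, 348 and 419 CPM (0.62 ± 0.15) and AT2G44120 had 131, 142, 165 and 192 CPM (0.39 ± 0.14). AT2G01250 was the more abundant of that pair in every plant. RPL7a had 270, 279, 335 and 420 CPM for AT3G62870 and 207, 205, 278 and 337 CPM for AT2G47610. The RPL18 pair was nearly equal, with 243, 228, 308 and 374 CPM for RPL18 (AT3G05590) and 240, 242, 300 and 361 CPM for AT5G27850. AT3G49010 of the RPL13 family had 219, 226, 270 and 363 CPM (0.51 ± 0.19). The PPD3_OE plants lay above the Col-0 plants in each of these families. The smallest large-subunit difference was that of AT5G23900 (RPL13 family), at 95.3, 102, 108 and 122 CPM (0.22 ± 0.13). In the RPL13a family of 4, AT3G24830 was the most abundant in every plant (232, 242, 258 and 311 CPM) and had the smallest log2 fold change (0.26 ± 0.15). The order of abundance in this family was the same in all plants. AT4G13170, the scarcest, had 36.7, 35.8, 49.2 and 61.2 CPM (0.61 ± 0.14, edgeR adjusted p = 0.0815). The other members of this family, AT3G07110 and AT5G48760, had log2 fold changes of 0.50 and 0.28. AT4G13170 shares 45.9% of its 150-base windows with AT4G13160, which held 0 reads in every plant. AT4G36130 and AT5G27850 share 13.4% and 8.97% of their windows with other annotated genes.

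Small-subunit members had a median log2 fold change of 0.46 over 22 genes, against 0.52 over the 36 tested large-subunit genes. The difference between subunits was not tested. RPS3 lies at the entry of the mRNA channel: AT3G53870 had 211, 197, 270 and 332 CPM, AT2G31610 had 160, 151, 197 and 237 CPM, and AT5G35530 had 131, 140, 154 and 169 CPM. RPSAA, of the family that binds the outer face of the subunit, had 329, 313, 393 and 528 CPM. Its paralogue RPSAb held only 145, 144, 196 and 343 reads in the 4 plants, and it had the widest SE of the tested members (0.88 ± 0.38).

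In the RPS4, RPS7, RPS9 and RPS13 families every gene was higher in both PPD3_OE plants. RPS4 and RPS9 bind early in assembly of the subunit: RPS4 had 182, 180, 208 and 246 CPM for AT2G17360, 263, 260, 343 and 426 CPM for AT5G07090, and 125, 120, 148 and 200 CPM for AT5G58420. AT5G15200 of the RPS9 family had 321, 338, 415 and 481 CPM (0.44 ± 0.15). In these genes PPD3_OE plant 2 was again the highest of the 4 plants. In the RPS7 family AT5G16130 led with 169, 160, 216 and 264 CPM, ahead of AT3G02560 (117, 111, 130 and 153 CPM) and AT1G48830 (82.5, 81.4, 100 and 114 CPM). RPS13, which forms part of the contact between subunits, had near-equal paralogues: RPS13A had 170, 165, 200 and 246 CPM and AT3G60770 had 169, 168, 200 and 262 CPM.

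The RPS6 pair had the widest span of log2 fold change between paralogues, 0.67. RPS6 is the small-subunit protein phosphorylated by the S6 kinases downstream of the growth regulator TOR. RPS6A had 195 and 190 CPM in Col-0 plants 1 and 2, and 302 and 413 CPM in PPD3_OE plants 1 and 2 (log2 fold change 0.89 ± 0.20, 1.86-fold, edgeR adjusted p = 0.0757, DESeq2 adjusted p = 0.00130). RPS6B had 314, 329, 340 and 410 CPM in the same order (0.22 ± 0.16, edgeR adjusted p = 0.367). RPS6A had the largest log2 fold change of the 58 tested members, and RPS6B the fourth smallest. Per kilobase, RPS6A made up 38.6% and 36.9% of the family in Col-0, and 47.3% and 50.4% in PPD3_OE, close to an even split. The shares did not overlap, and the mean change of 11.1 percentage points was the largest of all paralogues (exact permutation test, two-sided, p = 0.333, the smallest possible with 2 plants against 2). The coding sequences are 84.7% identical, and neither transcript shared a 150-base window with another gene.

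RPS18 held the member with no higher level in PPD3_OE. RPS18 sits in the head of the small subunit and contacts the large one, and loss of RPS18A (PFL) gives pointed first leaves. RPS18C had 163 and 166 CPM in Col-0 and 160 and 171 CPM in PPD3_OE, so the genotypes overlapped (log2 fold change 0.01 ± 0.12, edgeR adjusted p = 0.976). Its fitted sign was negative, at -0.038, with plain library size scaling and without PPD3_OE plant 2. RPS18A had 88.7, 91.9, 112 and 138 CPM (0.47 ± 0.15) and AT1G34030 had 76.5, 79.5, 98.0 and 121 CPM (0.49 ± 0.15), both without overlap. Within the family, RPS18C took 48.8% and 48.3% of the level per kilobase in Col-0 and 42.4% and 38.9% in PPD3_OE, the largest share in each plant (exact permutation test, two-sided, p = 0.333). RPS18C overlaps AT4G09810 on the opposite strand, and the reads carry no strand.

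**Figure D3:**
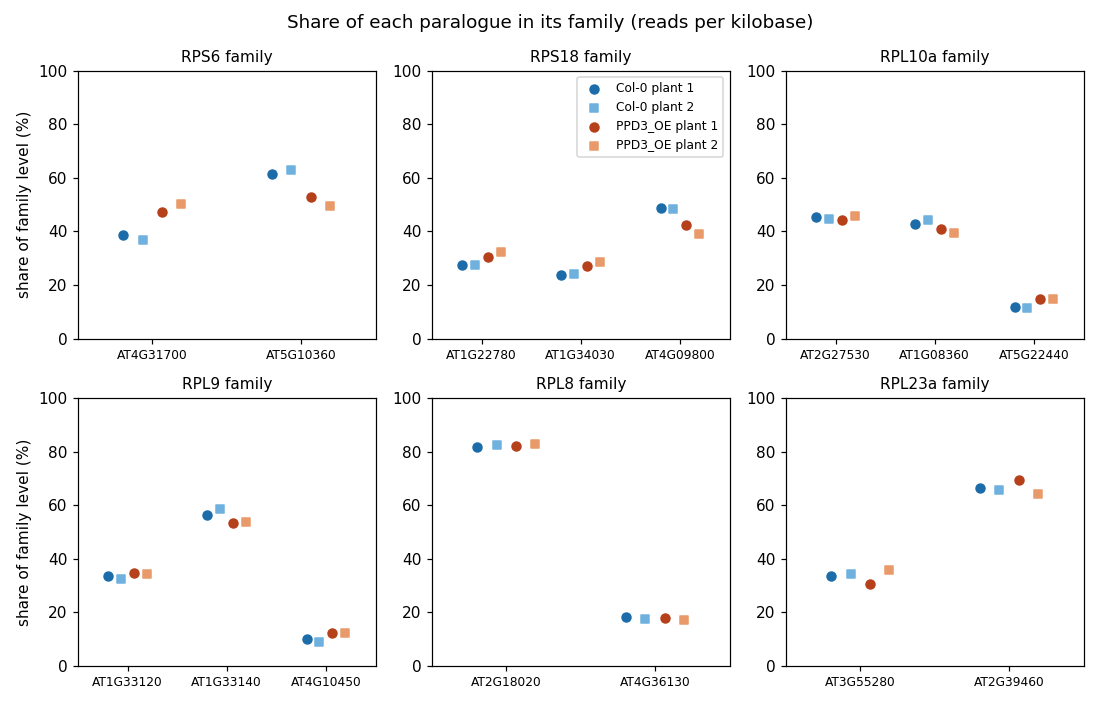
Share of each paralogue in the summed reads per kilobase of its family, in percent, for the 4 families with the widest and the 2 with the narrowest span of log2 fold change; each point is 1 plant. RPS6 (AT4G31700 and AT5G10360) goes from 38.6% and 61.4% in Col-0 plant 1 to 50.4% and 49.6% in PPD3_OE plant 2, while RPL8 keeps 81.6% to 82.9% in AT2G18020.

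The scarcest paralogue had the highest log2 fold change in some families and not in others. Of 22 families with at least 2 tested genes, the gene with the lowest level per kilobase in Col-0 had the highest log2 fold change in 11, and the count was 11 when genes were ranked by the mean over all plants. In the 9 families with 3 or more tested genes it was so in 6, among them RPL9, RPL10, RPL10a, RPL12, RPL13a and RPS18. In the 13 pairs it was so in 5. Families such as RPL7, RPL13 and RPS3 went against this order. Over all 58 genes, Spearman's rho between the log2 fold change and the Col-0 level per kilobase was -0.18, where both axes contain the Col-0 values.

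The span of log2 fold changes between paralogues had a median of 0.26, from 0.02 in RPL23a and 0.04 in RPL8 to 0.67 in RPS6. The most abundant paralogue was the same gene in all 4 plants in 20 of 22 families, with RPS6 and RPL12 as exceptions. Of 54 paralogue shares, 40 did not overlap between genotypes, with a median change of 2.12 percentage points. Among levels of all genes tested, 33.9% lay above and 33.0% below in both PPD3_OE plants. Shares in other gene families were not computed, so the 40 is no result about these families. In pairs one share fixes the other, so these 54 are not separate observations.

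The filter on low counts left out AT3G48960 and RPL27AB. AT3G48960 of the RPL13 family held 1 read in Col-0 plant 1 and 0 in the other plants, where a count of 0 allows up to 0.0888 CPM in the shallowest library, for counting error only. RPL27AB (AT1G23290, chr1:8262925-8263739, plus strand) had 0 reads in every plant, while its paralogue AT1G70600, with 91.8% of coding bases in common, had 176, 178, 227 and 324 CPM. AT1G23300, annotated on the opposite strand, covers 652 of the 666 windows of 150 bases in the RPL27AB transcript and held 0, 1, 1 and 0 reads. The files hold a row of ambiguous reads outside the gene counts, and whether RPL27AB reads fell there was not tested, so the 0 does not measure its expression. In all, 14 of the 60 members overlap another annotated gene.

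Other cytosolic ribosomal protein genes were mostly higher too. A list of 144 other cytosolic ribosomal protein genes had 134 tested, of which 129 had positive log2 fold changes, against 51.2% of all genes tested. In 124 both PPD3_OE plants lay above both Col-0 plants, against 33.9% of all genes. Their median log2 fold change was 0.46. edgeR called 0 at an adjusted p under 0.05 (83 higher and 0 lower at an unadjusted p under 0.05, against 16.1% of all genes higher), and DESeq2 called 54 higher and 0 lower, against 8.41% of all genes higher. RACK1B, a scaffold on the small subunit, had a log2 fold change well above the list's median, at 64.4, 56.4, 96.9 and 140 CPM (0.97 ± 0.22). AT4G02230, annotated in the L19 family, was the only tested gene of the list lower in both PPD3_OE plants, at 128, 143, 112 and 126 CPM. PPD3_OE plant 2 was above PPD3_OE plant 1 in all 134. RACK1B and AT4G02230 were named after their values were seen.

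Genes that build, use or regulate ribosomes differed by list. Ribosome biogenesis factors of the nucleolus were higher in both PPD3_OE plants in 10 of 10 tested genes, against 33.9% of all genes, and had a median log2 change of 0.55. FIB2, a fibrillarin that methylates ribosomal RNA, had 22.2, 23.4, 35.2 and 58.6 CPM, and NOP56, its partner, had 87.8, 88.5, 123 and 166 CPM. Translation factors were higher in both plants in 17 of 24 (70.8%) and lower in both in 1, against 33.9% and 33.0% of all genes. Their median log2 fold change was 0.26. The elongation factor LOS1 had 1226, 1221, 1350 and 1663 CPM, and the poly(A)-binding protein PAB2 had 526, 548, 524 and 548 CPM. The 6 genes of the TOR pathway had a median of -0.14, with TOR at 134, 144, 129 and 122 CPM. edgeR called 0 genes of these lists at an adjusted p under 0.05. At an unadjusted edgeR p under 0.05, 5 biogenesis factors, 4 translation factors and 0 TOR pathway genes were higher and 0 lower, and DESeq2 called 4, 3 and 0 higher and 0 lower. For translation factors these shares, 16.7% and 12.5%, lay near those of all genes, 16.1% and 8.41%, and so are no result about that list.

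Markers of other cells and states were measured in the same libraries. All 13 genes of dividing cells were higher in both PPD3_OE plants, against 33.9% of all genes, and their sum was 170 and 149 CPM in Col-0 and 286 and 282 CPM in PPD3_OE. The cyclin CYCB1;1 had 4.19, 4.16, 9.61 and 9.57 CPM. PPD3_OE plant 2 was above plant 1 in 4 of these 13. Senescing-leaf markers (4 genes) summed to 164 and 297 CPM in Col-0 and to 13.7 and 10.1 CPM in PPD3_OE. Leaf photosynthetic genes (4 genes) summed to 14951 and 10266 CPM in Col-0, and to 18195 and 20896 CPM in PPD3_OE. RBCS1A made up most of these sums. In 2 of the 4 genes both PPD3_OE plants lay above both Col-0 plants, against 33.9% of all genes. At an unadjusted p under 0.05 edgeR called 0, against 16.1% of all genes higher. DESeq2 called 1 higher at an adjusted p under 0.05, against 8.41% of all genes. CAB2, a chlorophyll-binding protein of the same list, had 1172, 1717, 1182 and 1386 CPM. Floral-organ markers (9 genes) summed to 18.3, 9.36, 29.0 and 23.4 CPM. In 6 of the 9 genes both PPD3_OE plants were higher, against 33.9% of all genes. At an adjusted p under 0.05, 0 were called by edgeR or DESeq2. At an unadjusted edgeR p under 0.05, 1 (11.1%) was higher, against 16.1% of all genes, which is no result about that list. Sums were 50.5, 60.9, 22.1 and 31.9 CPM for shoot-meristem markers (4 genes, CLV3 at 0 reads in every plant). Root markers (2 genes) summed to 46.2, 46.6, 46.6 and 32.4 CPM, which overlapped between genotypes. PYK10 made up most of these sums. IRT1, the other root marker, was scarce and lower in both PPD3_OE plants, at 1.35, 1.09, 0.025 and 0.233 CPM. The part of these cells and states in the ribosomal protein difference was not tested.

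**Figure D4:**
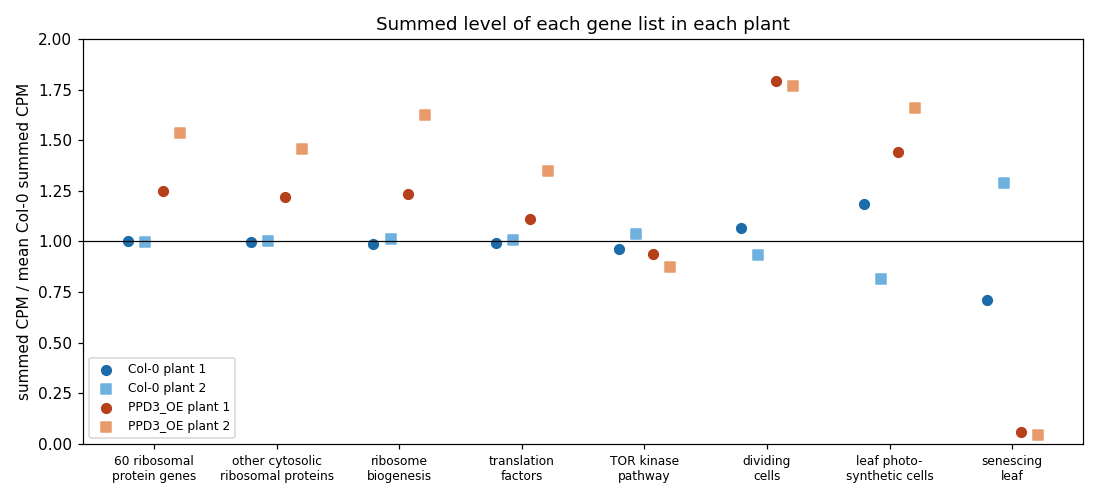
Summed CPM of each gene list in each plant, relative to the mean of the 2 Col-0 plants; each point is 1 plant. The 60 ribosomal protein genes stand at 1.25 and 1.53 in PPD3_OE plants 1 and 2, dividing-cell markers at 1.79 and 1.77, and senescing-leaf markers at 0.0596 and 0.0438.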

How the data were processed

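Values are raw read counts per gene, deposited by the authors as 1 file per plant with no normalization. Per the labels' protocols, RNA was extracted with a plant kit that removes DNA, and TruSeq libraries, which carry no strand, were sequenced as 150-bp single reads. The submitters' processing notes name TAIR10 and DESeq2. No source used here states the aligner, counter or annotation. Rows that name no gene stayed out. Their shares of counted reads were 0.713% to 0.941% (no feature), 3.67% to 4.18% (ambiguous) and 4.18% to 5.61% (several alignments), and such reads lower the counts of near-identical or overlapping genes.

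Counts were tested with edgeR 4.0.16 (filter at a minimum count of 10 and total of 15, TMM, quasi-likelihood F test of genotype, Benjamini-Hochberg over 19919 genes), and with DESeq2 1.42.0 beside it. The error after ± is the SE of a log2 fold change, and the SD over 2 plants elsewhere. The fit had 2 residual degrees of freedom and a prior of 2.36. RPKM is the scaled CPM per kilobase of RefSeq TAIR10.1 exons, computed here. The tests were checked on simulated counts whose changes were larger than that of any member. The check does not cover changes of the members' size. Families, lists and members were written from general knowledge with earlier results of these data known. Named genes are the 5 members with the smallest p per direction, the 5 most and 3 least abundant, the families of widest and narrowest span, and those that failed the filter, of which some are not reported here; other genes served to fill out families or were named after their values were seen. Of 158 other ribosomal protein loci written, 14 whose reference product names none were dropped.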

Additional observations from a re-analysis of the deposited data

Results flagged for a closer look

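Reads with several alignments, which enter no gene, took 5.16% and 5.61% of counted reads in PPD3_OE plants 1 and 2, above the 4.60% and 4.18% of Col-0 plants 1 and 2. They came to attention because they lie outside the gene counts and are higher than in both control plants. Ribosomal protein families with near-identical copies, such as AT1G33120 and AT1G33140, can lose reads to this class, and how many they lost was not tested.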

How the results depend on the processing

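The count of members called by edgeR was 0 in each direction under every scaling, filter and block tried. It became 13 higher at an adjusted p under 0.10 and 21 higher in the DESeq2 test. In the main edgeR fit 0 of 19919 genes were called higher at 0.05, and PPD3 itself was not called. The count of 0 is therefore no result about the members. With single plants left out, an alternative chosen after seeing the data, the DESeq2 count was lower or gone in most fits. The cause was not tested. The median log2 fold change of the members kept its sign, from 0.45 to 0.52 over scalings and from 0.31 (without PPD3_OE plant 2) to 0.65 (without PPD3_OE plant 1) in edgeR, and 0.31 to 0.64 in DESeq2 with plants left out. Members without overlap numbered 56 to 58, and paralogue shares without overlap 40 to 54. Shares over all genes are not given for these settings, so these ranges are no result about the members. The log2 ratio of summed levels ran from 0.32 to 0.62. With the replicate number as a block the median was 0.49 and 0 members were called at 0.05. The block also took the count at an adjusted p under 0.10 from 13 to 0, with a lowest edgeR adjusted p of 0.161; no block was fitted in DESeq2. The labels do not say what the numbers share, and same-numbered plants deviated in opposite ways (r = -0.30 over 19919 genes). A crossed block, chosen after seeing the data, called 0 at 0.05 and 18 at 0.10. Chosen likewise, the count at 0.10 was 9 to 19 over scalings and filters. With single plants left out it was lower than in the main fit or gone. Shares over all genes at 0.10 were compared in the main fit only, so the other counts at 0.10 are no result about the members. RPS18C (AT4G09800) changed sign with library size scaling (-0.038), no filter (-0.018), a 5 CPM filter (-0.019), without Col-0 plant 1 (-0.036) and without PPD3_OE plant 2 (-0.038), and reached 0.054 without PPD3_OE plant 1; the cause was not tested. Leaving out 1 plant keeps a lone plant in 1 genotype, assumed to vary like the other. Depth limits RPSAb and RPL10B most.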
